A study of Mus musculus with 5 samples.

Results

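The genes described here are 54 genes of G2, mitosis and cytokinesis, chosen by name for their roles in cell division and read in hematopoietic stem cells (HSCs) with and without Atxn1L. A probe set, the group of short probes by which the array reads a transcript, was used only where its annotation names 1 member gene, and a gene with several was read by the probe set with the highest mean over the 5 arrays. All 54 members had such a probe set, of 18193 genes read in this way, and together they had 124 probe sets. HSCs were sorted from bone marrow of C57Bl/6 mice given as 6 to 8 weeks old in the labels. The sort took lineage-negative cells with Sca-1, c-Kit and CD150 that lay in the side population, the cells that pump out Hoechst dye. The genotypes were wild type (WT, 3 arrays) and Atxn1L null (2 arrays). The null allele of Atxn1L, a paralog of Ataxin-1, is carried by the whole mouse and not by HSCs alone. Cells were pooled for each array and no source used here gives the number of mice behind a pool, so that p-values measure the spread between these pools, which may be technical. The comparison asked which transcripts differ between HSCs of the 2 genotypes.

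A cell enters mitosis when CDK1 and its cyclins, freed of inhibitory phosphate by CDC25 phosphatases, phosphorylate proteins of the nucleus and spindle. Condensins then compact the chromosomes, kinetochores tie them to spindle microtubules, and the spindle checkpoint holds the cell until all are attached, after which the anaphase-promoting complex has securin and cyclin B destroyed and the cell divides. Most HSCs of an adult mouse rest outside the cycle, where the DREAM complex keeps the genes of G2 and mitosis repressed, and in cycling cells its MuvB core works with B-MYB and FOXM1 to turn the same genes on. DREAM and MuvB bind a promoter element named CHR, which often lies near CCAAT boxes bound by NF-Y.

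The letters of both elements were common in the promoters of the members. In the RefSeq set, a window of 300 bases (250 before and 50 after the annotated start) was given for 48 promoters of 45 members and for 32851 promoters in all. The CHR letters TTTGAA, searched on both strands, were found in 34 of the 48 member promoters (70.8%) and in 17.9% of all promoters. CCAAT was found in 37 (77.1%, against 37.4%), and both motifs together in 30 (62.5%, against 6.95%). A variant of the CHR, TTCGAA, was found in 4 (8.33%, against 1.56%), and 2 pairs of matches shared letters. A match describes the letters in this window and does not show that a factor binds there. Upstream stretches of 4 members are printed to show how the motifs lie: Mki67 and Ndc80, which passed the test described later, the central mitotic kinase gene Cdk1, and Top2a, whose stretch held the most matches of the 4. They run 5′ to 3′ on the gene's strand, in build GRCm38.p6, and capitals mark letters of a motif on either strand.
Mki67, chr7:135716451-135716579, minus strand: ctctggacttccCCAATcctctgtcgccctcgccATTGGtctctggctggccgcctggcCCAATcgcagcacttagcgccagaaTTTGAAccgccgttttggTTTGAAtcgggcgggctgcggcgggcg
Cdk1, chr10:69352913-69353112, minus strand: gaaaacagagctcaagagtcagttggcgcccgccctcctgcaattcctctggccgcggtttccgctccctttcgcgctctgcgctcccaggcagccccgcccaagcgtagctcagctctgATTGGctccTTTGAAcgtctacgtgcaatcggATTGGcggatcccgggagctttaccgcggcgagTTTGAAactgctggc
Top2a, chr11:99024200-99024389, minus strand: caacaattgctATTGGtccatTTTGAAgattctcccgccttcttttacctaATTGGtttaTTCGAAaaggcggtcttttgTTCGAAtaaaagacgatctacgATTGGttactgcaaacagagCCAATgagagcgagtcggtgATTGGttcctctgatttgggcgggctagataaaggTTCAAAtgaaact
Ndc80, chr17:71526858-71527057, minus strand: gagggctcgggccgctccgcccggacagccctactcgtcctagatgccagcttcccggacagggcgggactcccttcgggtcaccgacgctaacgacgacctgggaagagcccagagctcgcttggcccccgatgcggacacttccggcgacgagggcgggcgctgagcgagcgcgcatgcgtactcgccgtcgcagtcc
The stretch of Mki67 held 2 CHR and 3 CCAAT matches, that of Cdk1 2 and 2, and that of Top2a 2 CHR, 2 variant and 5 CCAAT matches. The stretch of Ndc80 held none, and its window had a single CHR match 30 bases into the transcribed part. The members with both motifs in a promoter (28) had a median difference between genotypes of 0.10 on the log2 scale, and the 17 without had 0.04.

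The deposited values are on the log2 scale of GCRMA, a method that subtracts background by probe sequence, and a difference of 1 is a doubling. Of the 54 members, 39 reached a mean of 5 in WT or null arrays and 15 lay below 5 in both, called near background here. The limit of 5 was a setting, and no background level was measured. The medians of the arrays over all probe sets were 3.03 to 3.07. Of 3 Atxn1l probe sets, 2 passed the test described next as lower in the null arrays, at 4.98 to 6.80 in WT against 3.08 to 3.99 in null for the brighter and 5.74 to 6.52 against 3.23 to 3.65 for the other. Whether they lie in the deleted part of the gene was not checked. The Gapdh control probe sets differed more between the 3′ and the 5′ end of the transcript in both null arrays (7.33 and 7.21) than in the WT arrays (5.89, 6.02 and 5.92). Those of beta-actin did so too (7.43 and 7.28 against 6.71, 6.60 and 6.40). The part of this difference between the ends in the results for the members was not tested.

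A probe set passed where limma's moderated test gave an unadjusted p of at most 0.05 and the genotypes differed at least 1.5-fold, a log2 difference of 0.58. Mki67, Ndc80 and Smc4 rose in Atxn1L null HSCs and no member fell. These 3 of 54 members are 5.56%, against 1.57% of all genes that passed as higher, and the 0 lower members stand against 1.43% of all genes. Among genes with a mean of at least 5 over the 5 arrays, where all 3 lie, the shares passing as higher were 8.33% of 36 members and 3.35% of 7070 genes, and those passing as lower 0 members and 3.44% of genes. None of the 54 reached an adjusted p of 0.05 after Benjamini-Hochberg adjustment over all 45037 probe sets in limma (lowest adjusted p = 0.384), and neither did any of the 18193 genes. At an unadjusted p of at most 0.05 alone in limma, 5 members were higher and 1 was lower. These 6 of 54 stand against 1353 of 18193 genes (7.44%) in either direction. Among genes with a mean of at least 5 over the 5 arrays, the counts were 5 of 36 members and 1144 of 7070 genes. The count of 3 rested in part on single arrays. It was 1 (Mki67) without WT replicate 3, a fit in which 1.09% of all genes passed as higher. Leaving out null replicate 1 or 2 leaves 1 null array. Mki67 then differed by 0.71 and 1.01, Ndc80 by 0.56 and 0.69 and Smc4 by 0.66 and 0.72.

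The median difference of the module between the genotypes was small, and no test over the list was run. The difference, null minus WT, was positive for 32 members and negative for 22, so that 59.3% were positive against 45.4% of all genes. The median difference of the members was 0.10 and that of all genes was -0.0019, with members ranging from -1.03 to 0.86. At a mean of at least 5 over all arrays, 58.3% of 36 members and 52.5% of genes were positive. The medians there were 0.11 and 0.021. Both null arrays lay above all WT arrays for 10 members (18.5%, against 9.14% of all genes) and below all WT arrays for 5 (9.26%, against 8.35%). Among genes with a mean of at least 5 over all arrays the corresponding shares were 19.4% of members and 18.2% of genes above, and 8.33% and 15.3% below, so that the share above was near the background. In RNA of sorted pools, a different number of cells in G2 or mitosis and a different amount of a transcript in each cell cannot be told apart.

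**Figure D1:**
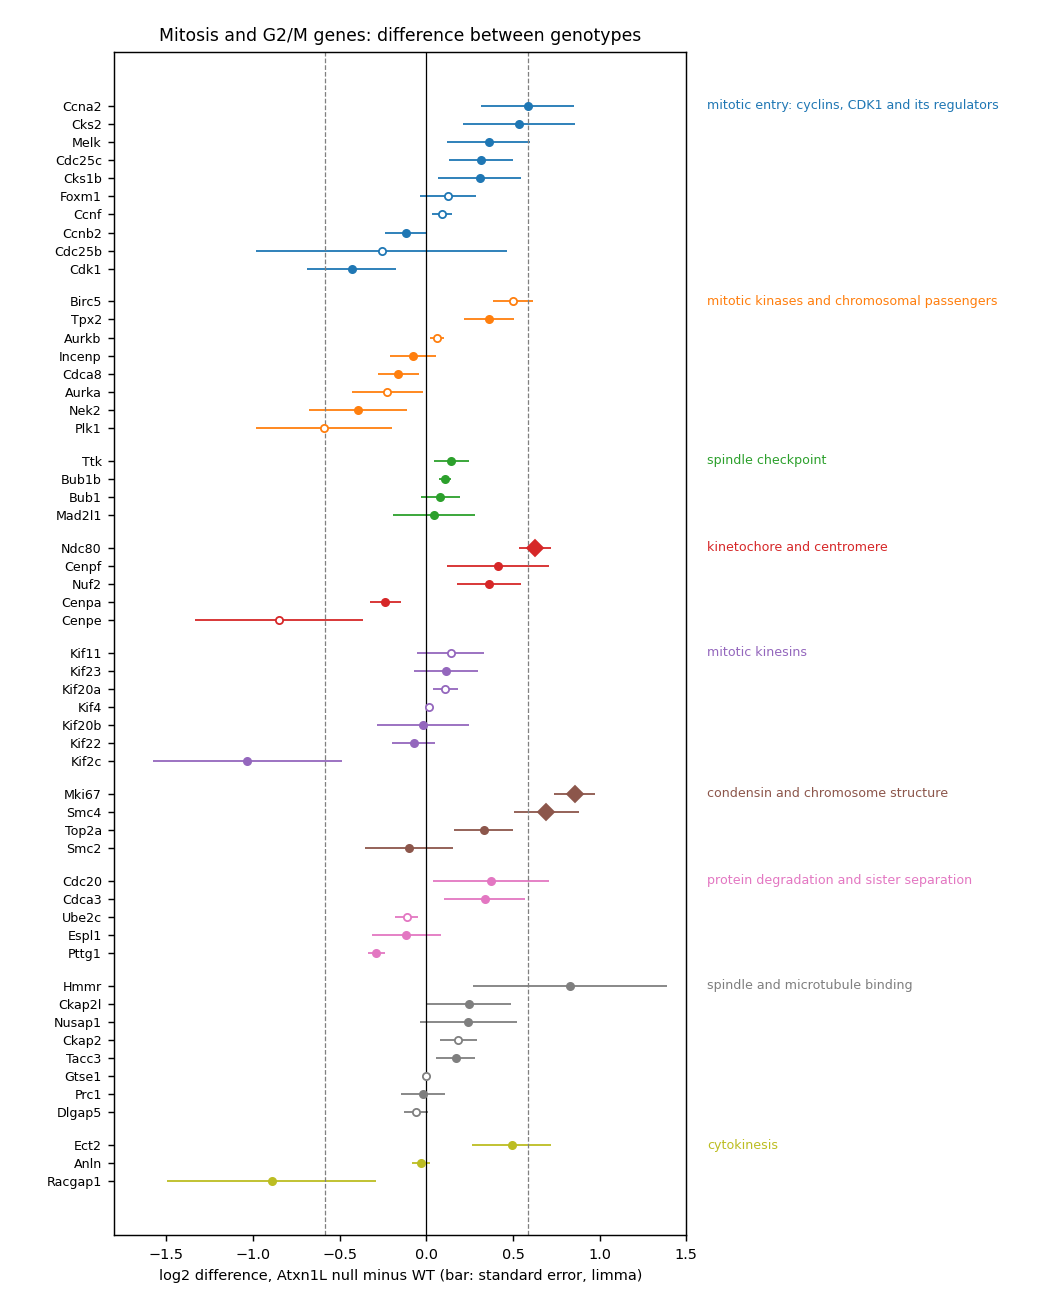
Log2 difference, Atxn1L null minus WT, of each of the 54 members (horizontal axis), by role in cell division, with bars for the standard error from limma. Diamonds are the 3 members that passed, open circles the 15 below 5 in both genotypes, and dashed lines mark 1.5-fold. Points lie on both sides of 0 in most roles, and Mki67, Smc4 and Ndc80 are the diamonds to the right.

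Mki67 encodes Ki-67, a protein that coats mitotic chromosomes and marks cycling cells. Its WT values were 9.75, 9.77 and 9.59 and its null values 10.71 and 10.41. Both null values lay above every WT value, by more than the whole WT range. The difference was 0.86 (SE 0.12, unadjusted p = 0.0025, adjusted p = 0.384 by limma), a fold of 1.81, and it ranged from 0.71 to 1.01 over the alternatives tried. Mki67 was the member with the largest rise and passed in all 14 alternatives that kept the criterion. The exact permutation test of 3 arrays against 2 cannot give a p below 0.1, for this or any other member.

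Ndc80 encodes a subunit of the NDC80 complex, which grips microtubules at the outer kinetochore. Its values were 5.45, 5.61 and 5.37 in WT and 6.16 and 6.04 in null, again without overlap. The difference was 0.63 (SE 0.09, unadjusted p = 0.0031, adjusted p = 0.404 by limma), a fold of 1.54 that lay just over the threshold. It dropped to 0.57 without WT replicate 3 and 0.56 without null replicate 1, both under the fold, and to 0.49 with array weights. Nuf2, the partner of Ndc80 in the same complex, was at 6.24, 6.34 and 6.01 in WT and 6.77 and 6.34 in null (difference 0.36, SE 0.18) and did not pass.

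Smc4 encodes the core ATPase that condensin I and condensin II share. Its brightest probe set read 9.25, 9.63 and 9.08 in WT and 10.04 and 9.98 in null, a difference of 0.69 (SE 0.19, unadjusted p = 0.023, adjusted p = 0.712 by limma). The other 2 probe sets of Smc4 were also well above background and read in the opposite direction. One gave 8.51, 8.19 and 8.40 in WT and 7.87 and 8.13 in null (-0.37), and the other gave a difference of -0.10. The rise of Smc4 is therefore that of 1 probe set, and the mean of all 3 differed by 0.07. Without WT replicate 1, WT replicate 3, null replicate 1 or null replicate 2 the brightest probe set no longer passed, at 0.66, 0.57, 0.66 and 0.72. The part of transcript ends or isoforms in this disagreement was not tested.

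Condensin and chromosome structure was the role with the highest median, 0.51 over its 4 members, 2 of which passed as higher. This median and its rank hold for the brightest probe sets. Smc4, Smc2 and Top2a each had another probe set with a mean of at least 5 and the opposite sign. Smc2, which pairs with Smc4 in condensin, was at -0.10 in its brightest probe set (SE 0.25). A second probe set of Smc2 read 6.36, 6.40 and 6.10 in WT and 6.79 and 6.94 in null, a difference of 0.58 at an unadjusted p of 0.0099 in limma that stayed just under 1.5-fold. Top2a, the topoisomerase that untangles sister chromatids, read 9.59, 9.67 and 9.50 in WT and 10.16 and 9.67 in null (0.33, SE 0.17) in its brightest probe set, and its other probe set above 5 was at -0.31. Mki67 has a single probe set on the array, so no such check could be made for it.

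Among the 10 genes of mitotic entry none passed, 7 were positive and the median was 0.21. Ccna2, the cyclin A gene of S and G2 phase, had WT values of 6.85, 6.88 and 6.49 and null values of 7.67 and 6.98. The null arrays lay above the WT arrays but differed from each other by more than the WT range, so that the difference of 0.58 (SE 0.27) did not pass, although it did at 0.92 without null replicate 2. Cdk1 went the other way, at 6.89, 6.29 and 6.29 in WT and 6.23 and 5.88 in null (-0.43, SE 0.26), with WT replicate 1 as the high value and null replicate 2 as the low one. Cks1b, a small CDK-binding subunit and the gene with the highest mean here, was at 12.91, 12.68 and 12.21 in WT and 12.96 and 12.85 in null (0.31, SE 0.24), and its genotypes overlapped. Ccna2 and Cdk1 thus differed in sign, and neither passed. The cyclin gene Ccnb2 was at -0.12 (SE 0.12), with the sign of Cdk1, and did not pass either. The phosphatase gene Cdc25b, below 5 in the mean of both genotypes, was at 4.91, 4.91 and 4.67 in WT and 5.66 and 3.50 in null. Its null arrays lay on either side of WT, and it passed as higher (0.82) without null replicate 2 and as lower (-1.34) without null replicate 1. Foxm1, the transcription factor of the G2 and mitosis program, lay below 5 on every array, with a difference of 0.12 (SE 0.16).

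The 8 mitotic kinases and chromosomal passengers had a median of -0.12, and none passed by its brightest probe set. Birc5 encodes survivin, which holds the chromosomal passenger complex at centromeres. It was at 4.65, 4.39 and 4.37 in WT and 5.05 and 4.90 in null, a difference of 0.50 (SE 0.12, unadjusted p = 0.014, adjusted p = 0.625 by limma) that is under 1.5-fold and near background. It reached 0.59 and passed without WT replicate 1. Incenp, the scaffold of the same complex, was at 13.66, 13.35 and 13.70 in WT and 13.44 and 13.54 in null (-0.08, SE 0.13), read by a probe set whose probes may bind several transcripts. The kinase genes Aurka, Aurkb and Plk1 lay below 5 in both genotypes. Plk1 read 4.84, 4.77 and 4.78 in WT and 4.80 and 3.62 in null (-0.59, SE 0.39). Its difference came from null replicate 2, at -1.18 without null replicate 1 and 0.001 without null replicate 2.

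Cdca8 encodes borealin, a further passenger protein, and was singled out after its values were seen. Its dimmest probe set read 6.38, 6.08 and 6.16 in WT and 5.45 and 5.37 in null and passed as lower (-0.80, SE 0.10, unadjusted p = 0.002, adjusted p = 0.363 by limma), also with each array left out in turn. The other 2, brighter and of a kind whose probes may bind several transcripts, read -0.16 and -0.32. All 3 were lower in null. Counting a gene where any of its probe sets passed gives 3 members higher and 1 lower, against 2.3% and 2.21% of all genes. The 2 passenger genes differed in opposite directions, Birc5 short of the fold and Cdca8 past it in 1 of 3 probe sets.

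All 4 spindle checkpoint genes were positive, at differences from 0.04 to 0.14, and none passed. Bub1b, the gene of the checkpoint protein BubR1, was at 8.07, 8.11 and 8.12 in WT and 8.16 and 8.25 in null. The genotypes did not overlap, but the difference of 0.11 (SE 0.04, unadjusted p = 0.046, adjusted p = 0.866 by limma) was small. Of the 5 kinetochore and centromere genes, Ndc80 passed as higher and the median was 0.36. Cenpa, the centromeric histone H3 variant, was at 10.90, 11.02 and 11.07 in WT and 10.87 and 10.65 in null (-0.24, SE 0.09), below all WT arrays. Its dimmest probe set, which lay below 5 in both genotypes, read 0.91 (SE 0.48), and with the mean of all its probe sets the sign of Cenpa turned. Cenpe, a kinesin that carries chromosomes to the spindle equator, was at 5.39, 4.40 and 4.09 in WT and 4.03 and 3.51 in null (-0.85, SE 0.48), near background and spread widely among WT arrays.

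**Figure D2:**
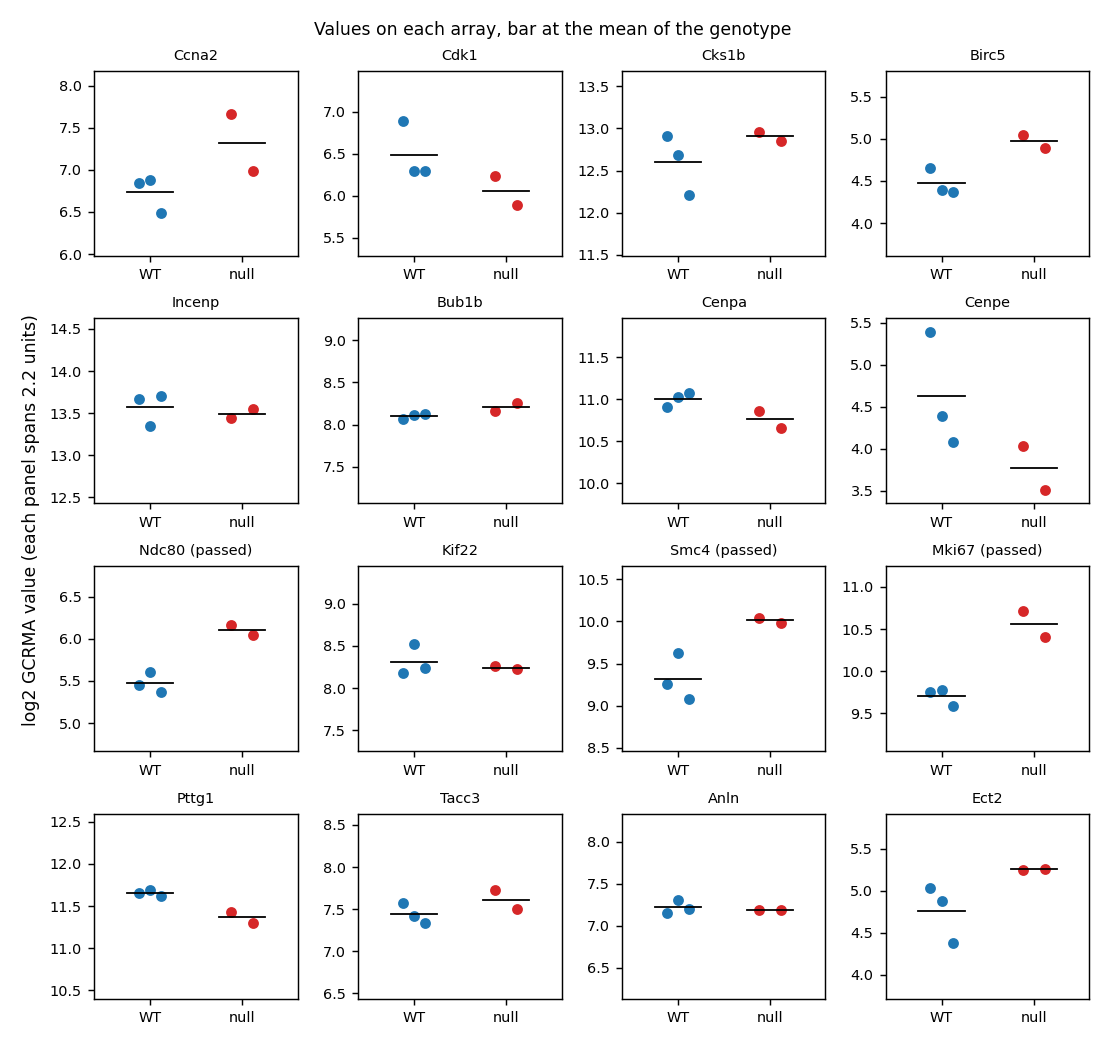
Log2 value on each array (vertical axis, every panel spanning 2.2 units) for 16 members, with WT points on the left, Atxn1L null points on the right and a bar at the mean of each genotype. The null points all lie above the WT points for Mki67, Ndc80, Smc4, Ccna2, Birc5, Bub1b and Ect2. They all lie below for Cdk1, Cenpa, Cenpe and Pttg1. The genotypes overlap for Cks1b, Incenp, Kif22, Tacc3 and Anln.

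Mitotic kinesins, the motors that build the spindle and move chromosomes, had a median of 0.01 over 7 genes and none passed. Kif22, a kinesin that also binds chromosome arms and the one with the highest mean here, was at 8.18, 8.52 and 8.24 in WT and 8.26 and 8.22 in null (-0.07, SE 0.12). Kif2c, which takes microtubules apart at kinetochores, had the lowest difference of all members, but from 1 array: it was at 8.59, 8.01 and 8.51 in WT and 6.58 and 8.09 in null (-1.03, SE 0.54). This probe set is of the kind whose probes may bind several transcripts. The other probe sets of Kif2c lay below 5 in both genotypes, at differences of 0.15, -0.02 and -0.003. Without null replicate 2 the probe set used differed by -1.79, and with both null arrays it did not pass. Racgap1, a subunit of centralspindlin, showed such a spread in both genotypes, at 8.10, 6.76 and 6.73 in WT and 5.85 and 6.76 in null (-0.89, SE 0.60). Hmmr, a spindle protein also known as RHAMM, owed its difference of 0.83 (SE 0.56) to null replicate 1 at 6.14, since null replicate 2 at 4.64 lay within the WT range. Kif2c, Racgap1 and Hmmr were chosen after their values were seen, as members whose difference passed 1.5-fold and whose p did not pass.

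Genes that act at the exit from mitosis were split. Pttg1 encodes securin, the inhibitor of separase that must be degraded before sister chromatids part. It was at 11.66, 11.69 and 11.62 in WT and 11.43 and 11.30 in null, and the genotypes did not overlap. The difference of -0.29 (SE 0.05, unadjusted p = 0.0049, adjusted p = 0.464 by limma) is short of 1.5-fold, and the other 2 probe sets of Pttg1 gave -0.22 and -0.41. Its target separase, Espl1, was at -0.12 (SE 0.20), and Cdc20, the activator of the anaphase-promoting complex, at 0.37 (SE 0.33). The 5 genes of degradation and sister separation had a median of -0.11, and none passed.

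The 8 genes of spindle and microtubule binding had a median of 0.18 and the 3 of cytokinesis one of -0.03, and none passed. Tacc3, which steadies the microtubules pulling on kinetochores, was at 7.58, 7.41 and 7.34 in WT and 7.73 and 7.50 in null (0.17, SE 0.11). Ect2, the exchange factor that switches on RhoA at the cleavage site, was at 5.03, 4.88 and 4.37 in WT and 5.25 and 5.26 in null. Its null values were close together and above the WT values, whose own spread left the difference of 0.49 (SE 0.23) short of passing. Anln, the scaffold protein anillin of the contractile ring, was level at 7.16, 7.31 and 7.20 in WT and 7.19 and 7.19 in null (-0.03, SE 0.05).

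Of the 37 members with more than 1 probe set, 13 had at least 2 with a mean of at least 5 in WT or null arrays, and in 9 of these all such probe sets had the same sign. Signs differed in Cks2, Smc2, Smc4 and Top2a. Cks2, the relative of Cks1b, read 0.53 (SE 0.32) in the probe set used and -0.31 (SE 0.12) in the other, both of them bright. For these 4 genes the direction thus depends on which probe set is read. Aurkb, Bub1b, Cdc20, Kif2c, Kif22, Pttg1, Smc2 and Tacc3 were read by probe sets whose probes may bind several transcripts, as were Incenp and Cdca8. With such probe sets removed, Bub1b was at 0.02, Kif22 at -0.15, Pttg1 at -0.22, Tacc3 at 0.43 and Incenp at -0.18.

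**Figure D3:**
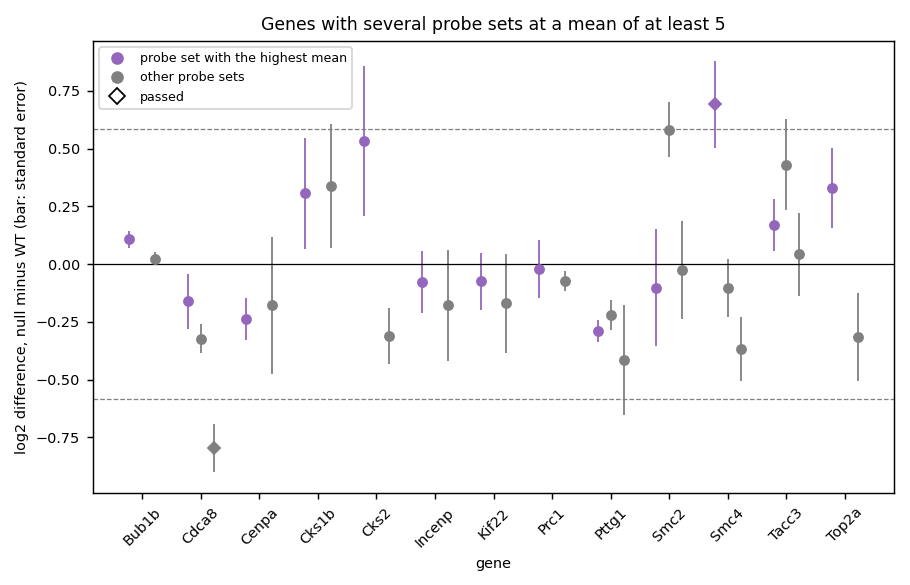
Log2 difference, Atxn1L null minus WT, of every probe set with a mean of at least 5 in the 13 members that have 2 or more of them, with bars for the standard error and dashed lines at 1.5-fold. Purple points are the probe sets with the highest mean, gray points the others and diamonds those that passed. Smc4 has a passing point above 0 and 2 gray points below it, and all 3 points of Cdca8 and of Pttg1 lie below 0.

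The arrays of 1 genotype differed among themselves about as much as the genotypes did. Over the 36 members with a mean of at least 5 over all arrays, the median distance from the WT mean was 0.10, 0.05 and -0.13 in WT replicates 1 to 3 and 0.08 in both null replicates. WT replicate 3 had the lowest value of the 5 arrays for 17 of the 36 members (47.2%, against 21.8% of genes as bright) and the highest for 2 (5.56%, against 19.9%). Null replicate 1 was highest for 12 (33.3%, against 29.0%) and null replicate 2 for 8 (22.2%, against 18.5%). Taking arrays in pairs over all 54 members, the 6 medians of null minus WT ran from 0 to 0.16 and 5 of them were positive. Those against WT replicate 3 were 0.13 and 0.16, and those against WT replicates 1 and 2 ran from 0 to 0.03. The 4 pairs within a genotype had medians of a size from 0 to 0.16.

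**Figure D4:**
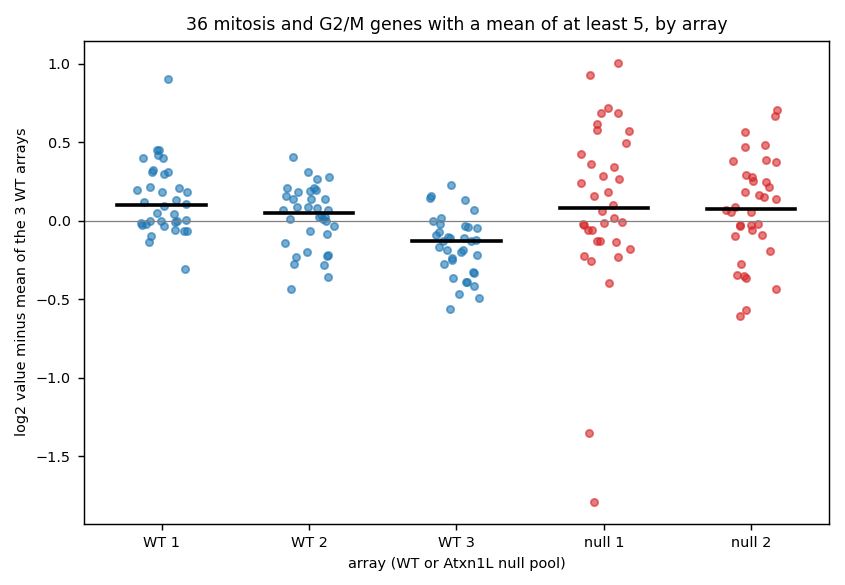
Log2 value minus the mean of the 3 WT arrays (vertical axis) for the 36 members with a mean of at least 5 over all arrays, a point per member on each array and a bar at the median. WT replicate 3 has a median of -0.13, below the other 4 arrays, and null replicate 1 has the widest spread of points.

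Markers of cell types that could enter the gate were read beside the members. The mean level of 10 genes that define HSCs was 7.68 to 7.72 on the WT arrays and 7.48 to 7.65 on the null arrays. None of them passed, but their single differences ran from -1.13 to 0.30, with 1 past 1.5-fold. Myeloid markers (11 genes) ran from 7.39 to 7.84 in WT and from 7.41 to 7.76 in null. They were highest in WT replicate 3, the array on which members were most often lowest, followed by null replicate 1. Single myeloid genes differed by -0.65 to 0.61, 2 of them past 1.5-fold, and none passed. Multipotent and lymphoid-primed progenitor markers (9 genes) were at 5.88 to 6.13 and 5.96 to 6.17, with Cd27 passing as higher although below 5 in both genotypes. Single differences there ran from -0.56 to 0.74, 2 of them past 1.5-fold. Erythroid and megakaryocyte markers (12 genes, 10 of them below 5) were at 4.21 to 4.38 and 4.24 to 4.26. Lymphoid lineage markers (10 genes, 9 below 5) were at 3.03 to 3.06 and 3.06 to 3.09. The part of such cells in the values of the members was not tested.

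The other genes of cell division on the array, 116 in 4 lists by role, had a median of 0.01. Of the 116, 4 passed as higher (3.45%, against 1.57% of all genes and 3.35% of genes with a mean of at least 5). Passing as lower were 2 of the 116, against 1.43% of all genes and 3.44% of genes with a mean of at least 5. The 17 other condensin and cohesin genes had 2 higher (11.8%) and 0 lower, 13 positive differences and a median of 0.27, and both null arrays lay above all WT arrays for 8 of them (47.1%, against 9.14% of all genes and 18.2% of genes with a mean of at least 5, as 15 of the 17 had) and below for 0. Stag1, which encodes a cohesin subunit, rose from a WT mean of 6.60 to 7.36 (0.77, SE 0.07, unadjusted p = 0.00043, adjusted p = 0.308 by limma) and kept its call without any 1 array. A second probe set of Stag1 above 5 read 0.82 (SE 0.32) and did not pass. Pds5b, a regulator of cohesin's hold on chromatin, rose from 7.35 to 7.95 (0.60, SE 0.15), but its second probe set above 5 read 0.07 (SE 0.18). It lost the call at 0.58, 0.53 and 0.48 without WT replicate 1, WT replicate 2 or null replicate 2.

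The 36 other kinetochore, centromere and checkpoint genes had a median of 0.02 with 1 gene passing each way (2.78% as higher). For this and the lists below, the shares of all genes passing were 1.57% as higher and 1.43% as lower. Among genes with a mean of at least 5 they were 3.35% and 3.44%. Trip13, an ATPase that remodels the checkpoint protein Mad2, rose from 9.04 to 10.09 (1.05, SE 0.18), read by a probe set that may bind several transcripts. Its other probe sets lay below 5 and read 0.57 (SE 0.18) and -0.05 (SE 0.05). Cenpu, of the inner kinetochore, fell from 8.74 to 7.69 (-1.05, SE 0.19), though its second probe set above 5 read 0.13 (SE 0.07). Both calls held without any 1 array. Of 27 other genes of mitotic entry and exit, Fzr1, the activator of the anaphase-promoting complex in late mitosis and G1, fell from 5.71 to 4.85 (-0.87, SE 0.27), and the median was -0.0006. It lost the call without WT replicate 1 (-0.80), WT replicate 2 (-0.77) or null replicate 2 (-0.57). The median of 36 other spindle, kinesin and cytokinesis genes was 0.002. Only Kif18a of these, a kinesin that damps chromosome movement, passed. Kif18a rose from 4.39 to 5.05 (0.66, SE 0.18), with its WT mean below 5. It lost the call without any 1 WT array (0.63 to 0.69) and without null replicate 1 (0.40).

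The 51 DNA replication and G1/S genes, the step of the cycle before the one studied here, had a median of 0.11. Of them, 46 had a mean of at least 5. Positive differences were found for 36 (70.6%, against 45.4% of all genes and 52.5% of genes with a mean of at least 5). Only 1 gene passed, as higher (1.96%, against 1.57% of all genes and 3.35% of genes with a mean of at least 5). That gene was Rfc1, the large subunit of the clamp loader, which rose from 9.75 to 10.36 (0.60, SE 0.11) and lost the call without WT replicate 1 (0.52) or null replicate 1 (0.55). Mitosis members and replication genes thus had medians of 0.10 and 0.11. The median over the members varied between arrays of 1 genotype with a pooled SD of 0.07. For 20 members the 95% interval of the difference lay within 1.5-fold of no difference in either direction, and for 34 it reached 1.5-fold or beyond, so that for most members 5 arrays bounded the difference less tightly than 1.5-fold.

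**Figure D5:**
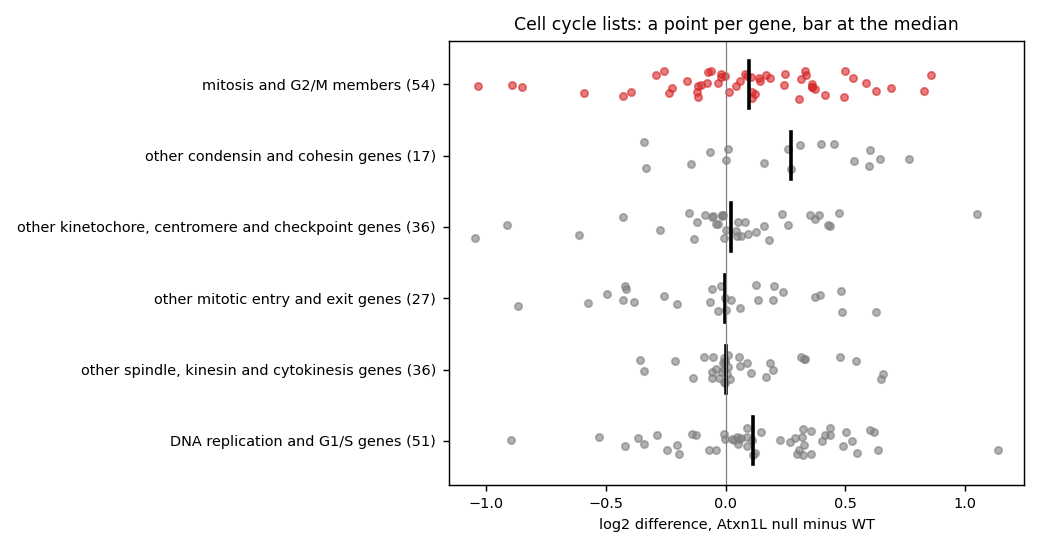
Log2 difference, Atxn1L null minus WT (horizontal axis), of each measured gene in 6 lists of cell division, a point per gene and a bar at the median, with the number of genes in parentheses. The medians run from about 0 in 3 of the lists to 0.27 in the other condensin and cohesin genes, with the members at 0.10.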

How the data were processed

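RNA of pooled HSCs, amplified by T7 transcription, was measured on 5 Affymetrix arrays. The authors processed intensities with GCRMA (version not given in the sources), and the deposited table holds 45101 probe sets with log2 values, a base that was read from their range. After removal of 64 control probe sets, limma 3.58.1 in R 4.3.3 (lmFit, then eBayes, default settings) was run on the other 45037 with a mean per genotype and no block. The calls were tested on simulated data. Probe sets were named from the platform annotation, in which 34945 have 1 gene.

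The members and all lists were chosen with earlier results of these data known, and no test was run over a list. Values on each array are given for members that passed, for those whose genotypes did not overlap at a difference of at least 0.4, and for the member with the highest mean in each role. Any other member named was chosen after its values were seen. Passing genes of other lists were named. These held other condensin and cohesin, kinetochore, mitotic entry and exit, spindle, and DNA replication genes, and markers of 5 cell types. Alternatives changed 1 choice at a time: the variance model, weights for arrays, the normalization, the probe sets kept or the way a gene was read, the criterion, a block on replicate number, and each array omitted. Promoters came from RefSeq, with 9 members not matched: Ccna2, Cdc25c, Foxm1, Aurkb, Incenp, Tpx2, Kif20a, Smc4 and Dlgap5.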

Additional observations from a re-analysis of the deposited data

How the results depend on the processing

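Where the criterion was kept, the share of all genes passing as higher ran from 0.632% to 4.38%, against 1.57% in the main fit. As lower it ran from 0.781% to 4.6%, against 1.43%. Both shares were lowest with the mean of all probe sets of a gene and highest without dim probe sets. The number of members passing as higher, 3, was 3 with the variance trend, both normalizations, both filters and the WT mean to choose a probe set. In those fits 1.39% to 4.38% of all genes passed as higher. This number was 2 with array weights (Cenpf and Mki67), where 2.12% of all genes passed. It was also 2 with the mean of all probe sets of a gene (Mki67 and Ndc80), where 0.632% did. The replicate block gave 1. It was 0 at an adjusted p of at most 0.05 and 5 at an unadjusted p of at most 0.05 with no fold. Without WT replicate 1, 2 or 3 the number was 3, 3 and 1, beside 1.1%, 1.55% and 1.09% of all genes. The number passing as lower, 0, became 1 with array weights (Cenpe, beside 2.1% of all genes). It was also 1 without cross-hybridizing probe sets (Cdca8, beside 1.49%) and 1 with no fold (Pttg1). It stayed 0 without any 1 WT array, where 0.901% to 1.73% of all genes passed as lower. With null replicate 1 or 2 left out, 1 null array remained. Cdc25b then differed by -1.34 and 0.82, Plk1 by -1.18 and 0.001, and Kif2c by -0.28 and -1.79. The median difference of the members stayed positive, from 0.04 with the mean of all probe sets of a gene to 0.14 without dim probe sets, a filter that 4 members passed by their null mean alone and 2 by their WT mean alone, and from 0.04 to 0.10 with 1 array left out. The sign turned for Incenp with array weights (0.15), for Cenpa with the mean of all probe sets (0.16), and without WT replicate 2 for Kif22 and Anln, whose differences with 1 array left out ran from -0.14 to 0.030 and from -0.064 to 0.013. The cause was not tested. Mki67 passed in 14 of 14 alternatives, Ndc80 in 10 and Smc4 in 7. Of the genes of other lists, Stag1 passed in 13 of 14, Cenpu and Trip13 in 12, Pds5b and Fzr1 in 10, Rfc1 in 9 and Kif18a in 8.

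Both genotypes have replicate numbers 1 and 2, but nothing documents that a number pairs pools, and the differences between numbers 1 and 2 correlated at -0.157 across all probe sets. With the replicate number as a block, which leaves WT replicate 3 without a partner, 1 member was higher (Mki67, 0.80) and 1 was lower (Cenpe, -1.12), and the median was 0.07. Of all genes, 0.901% passed as higher and 1.02% as lower in that fit.

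In 21 of the 54 members, and in 33.8% of all genes, at least 2 arrays had identical deposited values, which narrows the spread a test sees. None of the 3 members that passed was among them.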
